A study of Mus musculus with 6 samples.

Results

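The genes described here carry sodium, chloride, potassium and water across epithelial cells. They are Scnn1a, Scnn1b and Scnn1g, which encode the α, β and γ subunits of the epithelial sodium channel, the chloride channels Cftr and Ano1, the chloride-loading cotransporter Slc12a2, the water channels Aqp3 and Aqp5, and the potassium channel Kcnk1. They were taken by symbol from a table of read counts per gene, and all 9 were found among its 35673 genes. RNA was measured by RNA sequencing in 6 libraries of mouse cornea, 3 titled Control and 3 titled Cationorm. All came from male C57BL/6J mice aged 6 to 8 weeks. Cationorm, an eye drop, is a nanoemulsion of oil droplets with a positive charge. According to the labels, a model of dry eye was made with 0.1% benzalkonium chloride, an irritant preservative, given as 5 μL drops, together with 6 h of contact lens wear per day. Saline, hyaluronic acid or Cationorm drops followed for 14 days. The contact lens dry eye tag and a treatment tag of wild-type stand on every one of the 6 libraries, and whether the Control eyes were untreated or part of the model cannot be read from them. Nothing in the labels says whether each library came from 1 animal or from pooled corneas.

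Sodium enters a surface epithelial cell through the epithelial sodium channel at the apical side and is pumped out at the other side, and water follows. Chloride moves the opposite way in a secreting epithelium: Slc12a2 loads it into the cell and apical channels such as Cftr, opened by cyclic AMP signalling, and Ano1, opened by calcium, let it out. Aquaporins let water cross the membrane. In the cornea these fluxes act on tear fluid and on stromal hydration, and Aqp5 and Aqp3 are the water channels known from the epithelium.

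The promoters of these genes were looked up in RefSeq (build GRCm38.p6), where 7 of the 9 genes matched, and 3 are printed. Aqp3 is shown as a gene that was abundant in every library. Scnn1b and Scnn1g are shown as the scarce subunits of the sodium channel, whose genes lie on the same chromosome and strand. Each sequence is the 250 bases before the transcription start, 5′ to 3′ on the strand of the gene, and capitals mark motifs.
Aqp3, chr4:41098184-41098433, minus strand: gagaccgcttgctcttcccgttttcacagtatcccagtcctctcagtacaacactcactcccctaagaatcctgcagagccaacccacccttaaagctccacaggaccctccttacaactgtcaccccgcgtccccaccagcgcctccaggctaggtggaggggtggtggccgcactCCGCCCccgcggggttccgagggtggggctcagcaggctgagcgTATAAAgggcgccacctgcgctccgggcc
Scnn1b, chr7:121864788-121865037, plus strand: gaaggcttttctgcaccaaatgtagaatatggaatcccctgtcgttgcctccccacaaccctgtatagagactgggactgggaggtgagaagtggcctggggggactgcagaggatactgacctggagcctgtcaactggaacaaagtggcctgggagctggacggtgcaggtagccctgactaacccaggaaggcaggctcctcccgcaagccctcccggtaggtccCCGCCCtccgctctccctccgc
Scnn1g, chr7:121734229-121734478, plus strand: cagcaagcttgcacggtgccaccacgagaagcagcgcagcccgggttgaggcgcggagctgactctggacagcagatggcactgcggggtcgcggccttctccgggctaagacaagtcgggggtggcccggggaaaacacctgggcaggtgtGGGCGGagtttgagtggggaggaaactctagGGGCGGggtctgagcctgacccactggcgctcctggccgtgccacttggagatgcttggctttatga
The motifs searched on both strands were the GC box (GGGCGG), the TATA box (TATAAA), an E-box (CACGTG) and an AP-1 site (TGACTCA), and none of these overlaps another by its letters in the printed windows. In Aqp3 a TATA box began 29 bases before the start and a GC box on the opposite strand began 73 bases before it. Scnn1b held a GC box on the opposite strand, beginning 22 bases before the start, and Scnn1g held GC boxes beginning 98 and 67 bases before it. A GC box stood in 6 of the 7 matched windows and in 32.9% of 27025 promoters of the same length. A TATA box stood in 1 of the 7 and in 13.0% of all. An E-box was found in 1 of the 7 (Aqp5) and an AP-1 site in 0 of the 7, against 6.05% and 4.43% of all.

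Total counts ran from 32486043 to 39193311 per library. Levels are TMM-normalised counts scaled to library size (CPM), listed in the order of replicates 1 to 3. Taking 3 counts as what a count of 0 allows, the limit was 0.0765 CPM at the greatest depth and 0.0923 CPM at the least. These limits cover counting error only, and low counts were more often even than odd (62.2 to 65.1% of counts from 1 to 20, against 49.4 to 50.7% of counts over 100), so a fragment may have added more than 1 count to some genes. Markers of corneal epithelium held 5.67 to 6.11% of the counts, and Krt12, its defining keratin, was at 8350 to 9075 CPM. Markers of other eye tissues were present and uneven: retina genes took 0.566 to 0.846% of the counts of Control libraries and 0.265, 0.208 and 0.691% of those of Cationorm libraries, where replicate 3 was the high one, while iris, ciliary body and pigment genes took 0.0429 to 0.108% and 0.119 to 0.145%. All 15 retina genes were lower and all 9 pigment genes higher in Cationorm by point estimate, and 0 of either passed edgeR's test. In whole tissue, fewer cells of a type and less RNA per cell cannot be told apart.

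Per length, the 9 genes covered a range from 1754 CPM per kb of exon for Aqp5 to 0.0492 for Cftr, as means over the 6 libraries. Aqp5 was highest, at 1634 to 1891 CPM per kb over the 6 libraries, and Aqp3 followed at 1083 to 1192. Slc12a2 came next, at 31.5 to 36.9 CPM per kb, and Scnn1a after it at 16.2 to 21.3. Kcnk1 stood at 3.17 to 5.47 CPM per kb, Ano1 at 0.605 to 1.35, Scnn1b at 0.559 to 0.964, Scnn1g at 0.202 to 0.493 and Cftr at 0.0343 to 0.0654. In this order only Ano1 and Scnn1b overlapped, and every other neighbouring pair was separated in all 6 libraries. By rank of mean level per kb among 17908 tested genes with a length, Aqp5 was at place 15 and Aqp3 at place 29, while Cftr was at place 17845. Lengths are exon unions of the GRCm38 annotation and may differ from those the reads were counted on.

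**Figure D1:**
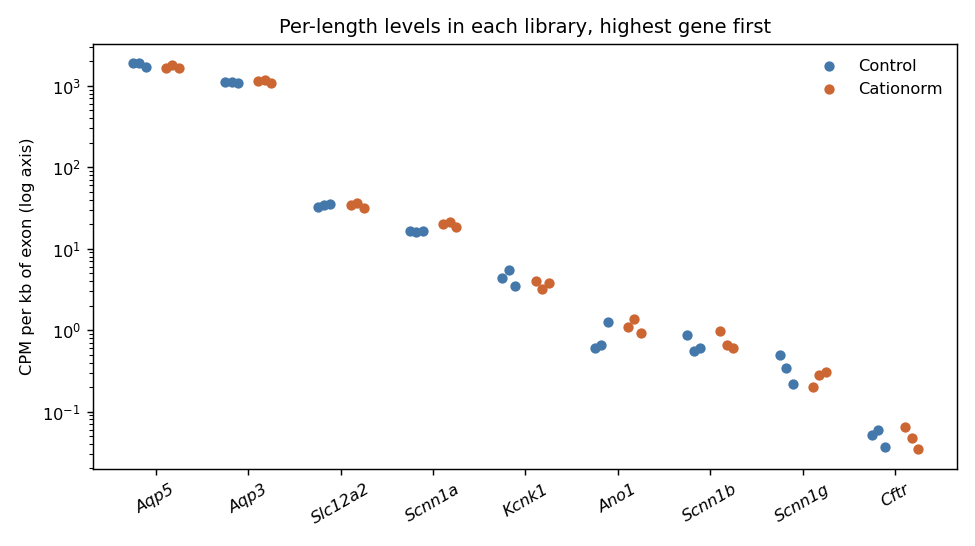
Level of each gene in CPM per kb of exon (log axis), 1 point per library, with Control in blue and Cationorm in orange. Aqp5 (1634 to 1891) and Aqp3 (1083 to 1192) stand far above the rest, and Cftr (0.0343 to 0.0654) is lowest.

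The comparison of Cationorm with Control asked whether the transcripts of these channels differed between the groups. None of the 9 genes passed edgeR's quasi-likelihood test after adjustment over all genes, and the share of all 18804 tested genes that passed was 0%. At an unadjusted p under 0.05 the test gave 1 of the 9 genes (11.1%), against 8.73% of all genes. DESeq2 called 0 of the 8 genes to which it gave an adjusted p, against 0.383% of the 16706 genes with one, and limma-voom called 0 of 9, against 0% of all genes. The groups did not overlap in 1 of the 9 genes (11.1%), against 14.8% of all genes, so neither share stood far from its background. By point estimate 5 of the 9 were higher and 4 lower in Cationorm, and their median log2 fold change was 0.00093, against 51.2% of all genes higher and a median of 0.0055 over all genes. All 9 passed the filter on low counts. The 1 gene in question was Scnn1a.

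**Figure D2:**
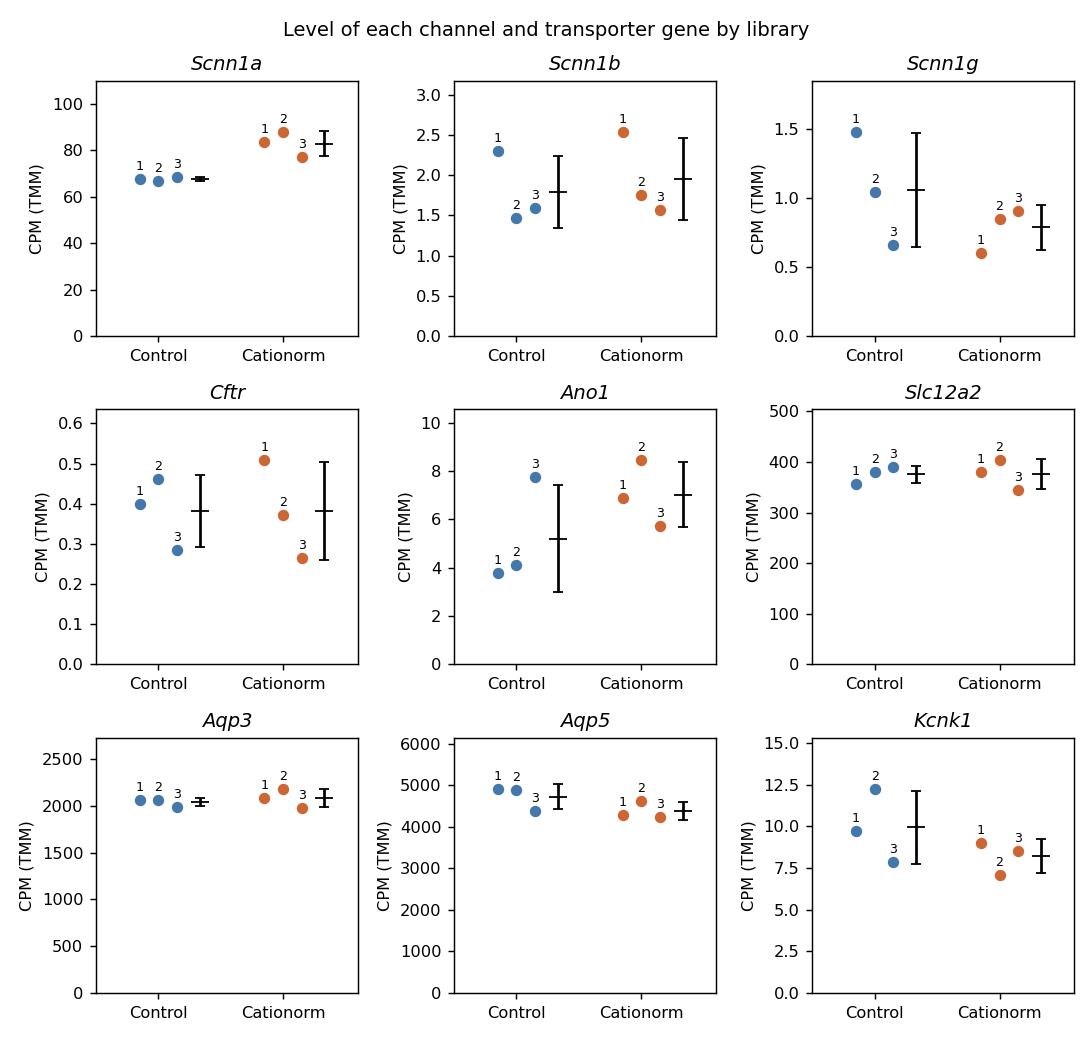
Normalised level of each gene in CPM, 1 panel per gene with its axis from 0, points numbered by replicate, and the mean with its SD (n = 3 libraries) in black. Only in the Scnn1a panel do all 3 Cationorm points (77.1 to 87.9) lie above all 3 Control points (67.0 to 68.6).

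Scnn1a encodes the α subunit, which the channel needs to carry current. Its level was 67.5, 67.0 and 68.6 CPM in the Control libraries and 83.5, 87.9 and 77.1 CPM in the Cationorm libraries. Every Cationorm library was above every Control library, and the Control libraries lay close together. The group means were 67.7 ± 0.797 and 82.9 ± 5.44 CPM (SD, n = 3 each), a log2 fold change of 0.29 ± 0.07 (SE; 95% interval 0.13 to 0.45), or 1.22-fold (1.10 to 1.37). In edgeR's quasi-likelihood test this had an unadjusted p of 0.00319, at place 52 of 18804 genes, and an adjusted p of 0.550, so it did not pass. The estimate ran from 0.23 to 0.34 when each library was left out in turn. Its smallest adjusted p there, 0.0760 without Cationorm 3, also missed the threshold. In Control the spread of Scnn1a between libraries (a CV of 1.18%) was below what counting alone would give at its mean count (1.92%), whereas in Cationorm it was 6.57%. The summed markers of corneal epithelium (5.67 to 6.11% of counts in Control, 5.83 to 6.11% in Cationorm) and of conjunctiva (0.292 to 0.402% and 0.318 to 0.330%) overlapped between groups. Within the conjunctiva list the keratin Krt13 was at 2141 to 2978 CPM, while the goblet cell mucin Muc5ac was at 0 in 3 libraries. The pigment markers did not overlap, and their part in the level of Scnn1a was not tested.

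Scnn1b and Scnn1g, the β and γ subunits that raise the channel's current when joined to α, were present at low levels. Scnn1b was at 2.30, 1.47 and 1.59 CPM in Control and 2.54, 1.75 and 1.57 CPM in Cationorm, and the groups overlapped, with replicate 1 the highest in each. Its log2 fold change was 0.12 ± 0.29 (SE; 95% interval -0.56 to 0.80). Scnn1g was at 1.48, 1.04 and 0.655 CPM in Control and 0.603, 0.849 and 0.904 CPM in Cationorm. Control 1 was the highest library for Scnn1g and Cationorm 1 the lowest, and the groups overlapped. Its log2 fold change was -0.43 ± 0.36 (SE; 95% interval -1.28 to 0.43). Scnn1g rested on 19 to 59 counts per library and Scnn1b on 51 to 92, and their intervals include the estimate of Scnn1a. At 1 count per fragment and the mean count over the 6 libraries, counting alone would give a CV of 17.2% for Scnn1g and 12.2% for Scnn1b. These would be larger if fragments added more than 1 count. The CVs between libraries were 38.9 and 20.4% (Control and Cationorm) for Scnn1g and 25.02 and 26.4% for Scnn1b. The estimate of Scnn1g was -0.10 without Control 1, -0.27 without Cationorm 1 and -0.67 without Control 3. In the GRCm38 annotation Scnn1b overlaps Cog7 on the opposite strand without shared exons.

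The subunits were far from equal in transcript level. Of the per-length sum of the 3 subunits, Scnn1a made up 92.3, 94.7 and 95.3% in Control and 94.5, 95.7 and 95.4% in Cationorm. Scnn1b made up 3.89 ± 0.911% in Control and 3.52 ± 0.861% in Cationorm (SD, n = 3), and Scnn1g 2.02 ± 0.765% and 1.26 ± 0.302%. The α subunit was thus the major transcript in each of the 6 libraries. Within libraries the log2 ratio of Scnn1g to Scnn1a was -5.61 ± 0.60 in Control and -6.27 ± 0.35 in Cationorm, and that of Scnn1b to Scnn1a was -4.62 ± 0.34 and -4.79 ± 0.34 (SD, n = 3). Neither ratio separated the groups (exact two-sided permutation tests, p = 0.30 and 0.50, adjusted over the 5 ratios computed to 0.375 and 0.50).

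Genes that process or regulate the sodium channel were measured as a group of 15, of which 14 were tested and 0 passed in either direction. Of these, 8 were higher and 6 lower in Cationorm by point estimate, and the median log2 fold change was 0.01. Furin, a protease that cuts the α and γ subunits, had the smallest p, with a log2 fold change of 0.16 ± 0.06 (SE; edgeR adjusted p = 0.550). It was at 97.5, 94.0 and 102.0 CPM in Control and 110.2, 108.1 and 109.1 CPM in Cationorm, without overlap. The ubiquitin ligase Nedd4 (514.8 ± 60.1 against 593 ± 35.6 CPM, SD) and the mineralocorticoid receptor Nr3c2 (6.78 ± 0.885 against 8.53 ± 0.984 CPM) overlapped between groups. Among the abundant members, Spint2, an inhibitor of channel-cutting proteases, had a log2 fold change of -0.13 ± 0.07 (SE).

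Cftr and Ano1 were the chloride channels of the set. Cftr had 16, 16 and 10 counts in Control and 16, 14 and 10 in Cationorm, all even numbers, or 0.266 to 0.508 CPM. The groups overlapped and their means were 0.382 ± 0.0898 and 0.382 ± 0.121 CPM (SD, n = 3). The log2 fold change of Cftr, -0.01 ± 0.38 (SE), had a 95% interval of -0.91 to 0.89. Its CVs between libraries, 23.5 and 31.8%, were near the 27.1% that counting alone would give at 1 count per fragment. Cftr shares exon sequence with an antisense gene, Gm15592, in the GRCm38 annotation, and how reads on the other strand were counted is not stated.

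Ano1, the calcium-activated channel, was at 3.78, 4.10 and 7.75 CPM in Control and 6.89, 8.44 and 5.74 CPM in Cationorm. Control 3 lay among the Cationorm libraries and Control 1 and 2 lay below all of them. Its log2 fold change was 0.43 ± 0.31 (SE; 95% interval -0.29 to 1.15; edgeR adjusted p = 0.616). Without Control 3 it was 0.84 (edgeR unadjusted p = 0.00771, adjusted p = 0.231), and without Control 1 it was 0.25. The iris, ciliary body and pigment markers took 0.0505, 0.0429 and 0.108% of counts in the Control libraries and 0.145, 0.119 and 0.120% in the Cationorm libraries, so that Control 3 was again the high Control library. Within Cationorm the orders differed, with Cationorm 1 highest for these markers and Cationorm 2 for Ano1. Control 3 was also the high Control library for other lists, such as retinal pigment epithelium (0.0652% of counts) and skeletal muscle (0.116%). The part of any of these tissues in the level of Ano1 was not tested. The lacrimal gland expresses several of these genes in its secretory cells. Its 4 markers with a row held 0.00013 to 0.000451% of counts in Control and 0.000317 to 0.000351% in Cationorm. Of these Dcpp1 was at 0 in 5 libraries, while Car6 was at 0.750 to 3.47 CPM.

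Slc12a2, the sodium, potassium and chloride cotransporter, was at 357, 379.9 and 389 CPM in Control and 379.8, 403 and 344 CPM in Cationorm. Cationorm held both the highest and the lowest library. The means were 375 ± 17.0 and 376 ± 29.7 CPM (SD, n = 3), with a log2 fold change of 0.00093 ± 0.076 (SE) and a 95% interval of -0.18 to 0.18. A change of more than 1.13-fold in either direction thus lay outside the interval of Slc12a2. Within libraries the log2 ratio of Slc12a2 to Scnn1a per length was 0.999, 1.10 and 1.10 in Control and 0.783, 0.793 and 0.755 in Cationorm. These values did not overlap, and the exact two-sided permutation test gave p = 0.10, the smallest that 3 against 3 allows (0.167 adjusted over the 5 ratios). The ratio of Kcnk1 to Scnn1a also separated the groups, at -1.90 ± 0.34 and -2.45 ± 0.25 (mean log2 ratio ± SD; exact permutation p = 0.10, adjusted 0.167). Both ratios have Scnn1a as their denominator.

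**Figure D3:**
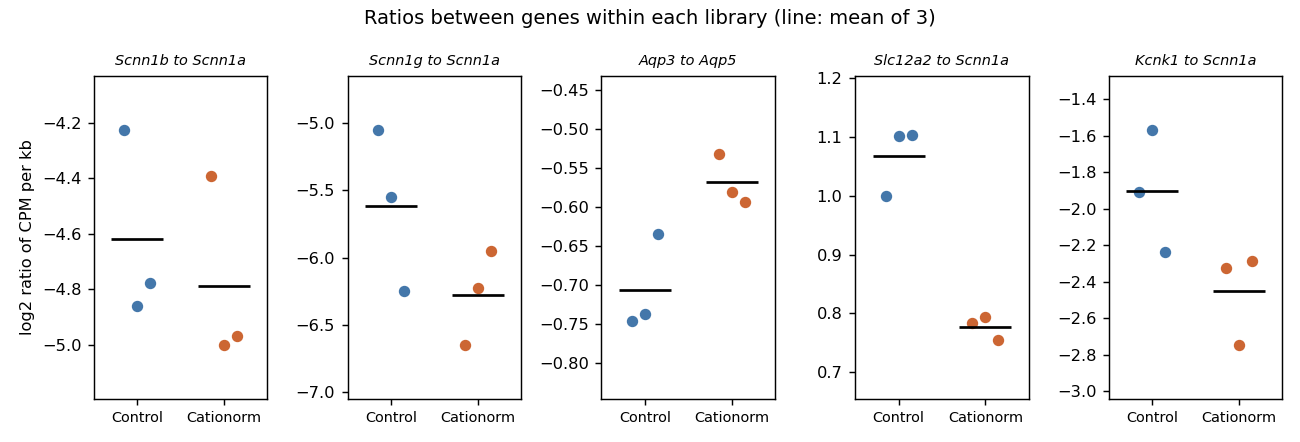
Log2 ratio of per-length levels for 5 pairs of genes, 1 point per library (Control blue, Cationorm orange) and a line at the mean of 3; each panel has its own axis, which does not start at 0. Slc12a2 to Scnn1a lies between 0.999 and 1.10 in Control and between 0.755 and 0.793 in Cationorm.

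The other chloride channels and transporters numbered 22, of which 19 were tested and 0 passed edgeR's test. Here 12 were higher and 7 lower in Cationorm by point estimate (median log2 fold change 0.12). Best2, a bestrophin channel, was at 4.15, 5.71 and 7.06 CPM in Control and 15.5, 18.6 and 11.7 CPM in Cationorm, with a log2 fold change of 1.44 ± 0.24 (SE; edgeR adjusted p = 0.550). DESeq2 called Best2 (adjusted p = 2.33e-06), and edgeR did so without Cationorm 3 (adjusted p = 0.0330), where 1.83% of all genes were called. Best2 is also 1 of the 9 pigment and ciliary body markers. Of those 9, 8 had an unadjusted p under 0.05 in edgeR's test in the direction of higher in Cationorm. That count includes Best2 itself, and the share of all genes, in either direction, was 8.73%. The part of these tissues in the level of Best2 was not tested. The anion exchanger Slc26a4 was at 8.33, 7.53 and 23.7 CPM in Control and 37.7, 35.1 and 24.3 CPM in Cationorm, again with Control 3 the high Control library. Lrrc8d, a subunit of the volume-regulated anion channel, was at 19.8 ± 2.22 and 24.8 ± 1.30 CPM (SD), which gave 0.33 ± 0.10 (SE) on the log2 scale. The exchanger Slc4a2 and the chloride transporter Clcn3, the most abundant of the list, had log2 fold changes of 0.10 ± 0.07 and -0.04 ± 0.07 (SE).

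Of 14 genes that control chloride secretion and had a row, all were tested and 0 passed. By point estimate 10 were higher and 4 lower (median log2 fold change 0.02), where 51.2% of all genes were higher. With total library size in place of TMM, 6 of the 14 were higher. Ezr, which tethers Cftr to the cytoskeleton, was at 694 ± 33.1 and 749 ± 59.1 CPM, and the kinase Wnk1 at 227 ± 6.84 and 229 ± 3.91 CPM (SD, n = 3). The kinase Wnk4, at 116 ± 9.85 and 127 ± 13.0 CPM, overlapped between groups. Pdzk1, a scaffold protein, was lower without overlap but scarce, at 0.489 ± 0.0760 and 0.260 ± 0.0744 CPM (SD; edgeR adjusted p = 0.550).

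The water channels Aqp5 and Aqp3 together took 0.618 to 0.711% of all counts. Aqp5, which lets water through the apical membrane of corneal epithelium, was at 4914, 4891 and 4383 CPM in Control and 4287, 4631 and 4247 CPM in Cationorm. Control 1 and 2 were above every Cationorm library, and Control 3 was among them. Its log2 fold change was -0.11 ± 0.07 (SE; 95% interval -0.27 to 0.06; edgeR adjusted p = 0.598), and it ran from -0.16 to -0.08 when each library was left out in turn. Aqp3, which passes glycerol as well as water, was at 2061, 2064 and 1987 CPM in Control and 2087, 2179.8 and 1981 CPM in Cationorm. The groups overlapped, with a log2 fold change of 0.03 ± 0.06 (SE; 95% interval -0.11 to 0.17). The log2 ratio of Aqp3 to Aqp5 within libraries was -0.746, -0.738 and -0.635 in Control and -0.532, -0.580 and -0.594 in Cationorm. It was higher in every Cationorm library, with a difference in means of 0.14 (exact two-sided permutation p = 0.10, the smallest the design allows; 0.167 adjusted over the 5 ratios).

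Among all 12 aquaporins with a row, Aqp5 made up 55.4 to 59.7% and Aqp3 35.0 to 38.5% of the summed level per kb. Aqp1, known from corneal endothelium, keratocytes and blood vessels, was the next at 4.01 to 5.32% in every library. Of the 10 other than Aqp3 and Aqp5, 6 were tested and 0 passed, with 3 higher and 3 lower by point estimate (median log2 fold change -0.04). Aqp1 was at 344 ± 26.5 and 365 ± 43.7 CPM (SD, n = 3; log2 fold change 0.08 ± 0.10 SE). Mip, the water channel of lens fibre cells, ran from 0.775 CPM in Control 1 to 215.9 CPM in Cationorm 3. The lens list, which includes Mip itself, took 0.00818% of the counts of Control 1 and 0.623% of those of Cationorm 3. The part of lens tissue in the level of Mip was not tested. Aqp2 and Aqp6 are the genes on either side of Aqp5 in the GRCm38 annotation. Aqp2 had 0.0844 to 0.138% as many counts as Aqp5, at 5.18, 5.60 and 6.07 CPM in Control and 3.62, 5.04 and 5.08 CPM in Cationorm, and Aqp6 was at 0.0531 to 0.399 CPM. Aqp4, a water channel of glia and ciliary epithelium, was at 9.01 to 13.5 CPM.

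Kcnk1 encodes a potassium leak channel with tandem pore domains. It was at 9.73, 12.2 and 7.86 CPM in Control and 9.01, 7.09 and 8.54 CPM in Cationorm. Control 2 was the highest library and Cationorm 2 the lowest, and the groups overlapped. The log2 fold change was -0.28 ± 0.19 (SE; 95% interval -0.73 to 0.17; edgeR adjusted p = 0.612), and it was -0.12 without Control 2 and -0.42 without Control 3. An antisense gene, Gm45875, overlaps exons of Kcnk1 and had 22 counts over all 6 libraries. Of 18 other potassium channels with a row, 15 were tested and 0 passed, with 8 higher and 7 lower by point estimate (median log2 fold change 0.07). The most abundant, Kcnk5 and Kcnk6, had log2 fold changes of -0.03 ± 0.07 and 0.20 ± 0.12 (SE). Kcnq5, a voltage-gated channel, was at 1.08 ± 0.446 and 2.94 ± 0.686 CPM (SD), a log2 fold change of 1.44 ± 0.34 (SE) that edgeR did not call (adjusted p = 0.550) and DESeq2 did (adjusted p = 0.0374). Kcnk2 and Kcnk3 had log2 fold changes of -0.69 ± 0.31 and -0.83 ± 0.40 (SE), and Kcnk3 was at 4.23, 3.38 and 3.50 CPM in the Control libraries and 1.49, 1.247 and 3.51 CPM in the Cationorm libraries. The order of libraries by retina genes was the same as that of Kcnk3 within Cationorm and differed within Control. The part of retina in the level of Kcnk3 was not tested. Without Cationorm 3, edgeR called Kcnk3 lower (log2 fold change -1.44, adjusted p = 0.0457). In that fit 1.83% of all genes were called, 335 of the 350 lower.

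The sodium pump moves sodium out of the cell on the side facing the stroma. Of its 14 subunit genes 13 were tested and 0 passed, with 6 higher and 7 lower by point estimate (median log2 fold change -0.00073). The β subunit Atp1b3 averaged 448 ± 68.6 CPM over the Control and 535 ± 45.4 CPM over the Cationorm libraries (SD, n = 3), with a log2 fold change of 0.26 ± 0.12 (SE; edgeR adjusted p = 0.550). Without Cationorm 3, edgeR called the β subunit Atp1b2 lower in Cationorm (log2 fold change -1.18, adjusted p = 0.0355). Atp1b2 is known from glia and photoreceptors, it was named after its values were seen, and in that fit 1.83% of all genes were called.

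**Figure D4:**
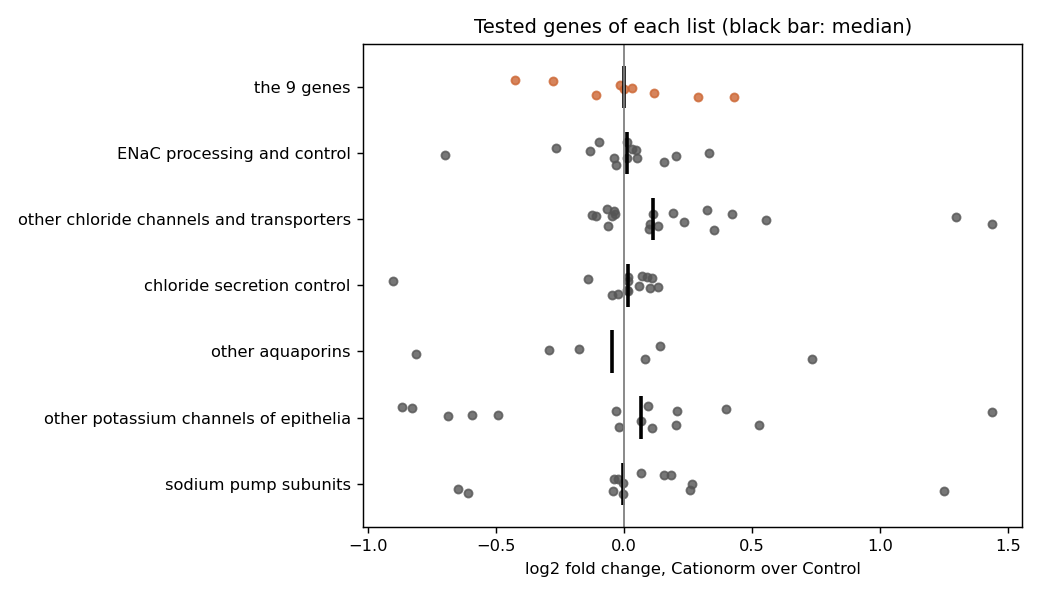
Log2 fold change, Cationorm over Control, of each tested gene: the 9 genes of the set in orange, the 6 related lists in grey, and a black bar at each median; the vertical scatter within a row carries no value. The medians lie between -0.04 and 0.12, and single genes such as Best2 and Kcnq5 (both 1.44) lie far from them.

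**Figure D5:**
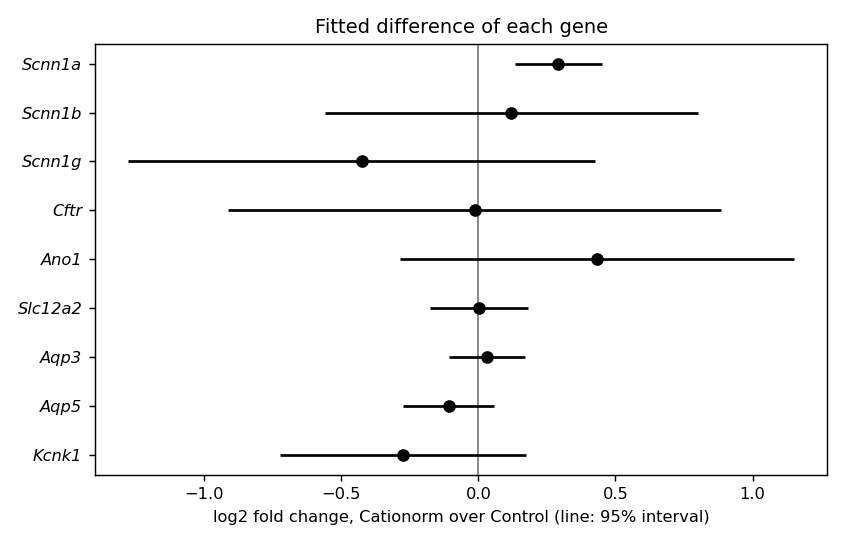
Fitted log2 fold change of each of the 9 genes (point) with its 95% interval (line). The interval of Scnn1a (0.13 to 0.45) is the only one of the 9 that does not cross 0, and those of Scnn1g and Cftr are the widest.

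The genes most like each member over the 6 libraries were sought among 11662 genes at 5 CPM or more, by Pearson's r of log2 CPM. With so few libraries and so many genes, high values of r arise readily, and they describe these libraries only. Scnn1a was followed most closely by Eif2b1 (r = 0.993), a translation initiation factor subunit, and by the chaperone Hsp90ab1 (r = 0.990), which were themselves not called (log2 fold changes 0.19 ± 0.07 and 0.16 ± 0.05 SE). Aqp5 was followed by the kinase Mknk2 (r = 0.991) and the transcription factor Ets2 (r = 0.987), and Aqp3 by the small GTPase Rhod (r = 0.986) and Prkag1 (r = 0.980). For Scnn1b they were Cwf19l1 and Ubn1, for Scnn1g Usp21 and Fzr1, for Cftr Dynlt1a and Pfas, for Ano1 Pgap4 and Usp28, for Slc12a2 Rpusd4 and Rps3a3, and for Kcnk1 Dcaf10 and Tcea1-ps1 (r between 0.975 and 0.999). No member at 5 CPM or more stood among the 2 closest genes of another.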

How the data were processed

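RNA-seq of mouse cornea was analysed from a table of raw counts per gene symbol that the authors deposited, and per the file headers each library has its own column. DESeq2, GRCm39 and mm39 appear in the submitters' processing notes with no role. The aligner, counter and strand setting were not stated. Columns were matched by library name and grouped by title. The labels do not say that replicates are separate animals, so the spread that p-values rest on may be technical. Every replicate pair differed by more than sampling noise (a chi-square of 27.7 or more per degree of freedom).

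Counts were scaled by TMM and filtered by filterByExpr, which kept 18804 of 35673 genes, and Cationorm was tested against Control by the quasi-likelihood test of edgeR 4.0.16 (R 4.3.3), without covariates, at a Benjamini-Hochberg adjusted p of 0.05. SE values derive from the log2 fold change and F statistic. The step was also run on simulated counts drawn independently for each gene. These held no shared shift of tissue between libraries, so the run does not cover such shifts. Ratios within libraries used exact permutation tests. Alternatives were DESeq2 1.42.0 and its size factors, total library size, no filter or at least 1 CPM in 3 libraries, limma-voom (limma 3.58.1), the replicate number as a block, and each library left out. The genes named are the 9 members, the 3 of each related list with the smallest p and the 2 most abundant, and the 2 most like each member; others were named after their values were seen. Members and lists were chosen with earlier results of these data known. Some genes that this rule names are not reported here.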

Additional observations from a re-analysis of the deposited data

How the results depend on the processing

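Of 339 recomputed values, 306 were kept. For fold changes this means the same direction and side of the threshold, and for counts a value within 1.5 times. For ratios only the direction was compared, as their exact permutation p cannot fall under 0.05 with so few libraries. Counts of calls that stayed at 0 are among the kept values. None of the 9 genes was called under any alternative, and Scnn1a, Scnn1g, Ano1, Aqp5 and Kcnk1 kept their direction in every fit that gave them a value. For Scnn1a the log2 fold change ran from 0.23 to 0.34 and edgeR's, DESeq2's or limma's adjusted p from 0.0760 to 0.862. With 1 library left out Scnn1g ran from -0.67 to -0.10, Ano1 from 0.25 to 0.84, Aqp5 from -0.16 to -0.08 and Kcnk1 from -0.42 to -0.12. Genes near 0 changed sign. Slc12a2 was at -0.0065 with DESeq2 size factors, -0.034 with total library size, -0.0023 with no filter, -0.0019 with the stricter filter, -0.0064 with DESeq2, -0.00094 with limma-voom and -0.0011 with the replicate block, and ran from -0.068 to 0.060 with 1 library left out. Aqp3 was at -0.0024 with total library size. With 1 library left out, Aqp3 ran from -0.018 to 0.067, Scnn1b from -0.11 to 0.35, Cftr from -0.26 to 0.19, and the difference in the log2 ratio of Scnn1b to Scnn1a from -0.36 to 0.031, which was above 0 without Control 1. The number of the 9 genes with a higher point estimate was 3 with total library size and 3 to 6 with 1 library left out. Total library size moved the median of all genes from 0.0055 to -0.028 and the share of higher genes to 8291 of 18804. With it, genes higher went from 8 to 5 of 14 in the sodium channel control list. In the chloride secretion control list they went from 10 to 6 of 14.

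The count of all genes called was 0 with edgeR, 64 with DESeq2 and between 0 and 350 with 1 library left out: 350 without Cationorm 3, 8 without Control 3 and 1 without Control 2. DESeq2 called 1 gene of the other chloride channels and 1 of the other potassium channels. With 1 library left out the calls were 0 to 1 in each of those lists and 0 to 2 among the sodium pump subunits. Same-numbered libraries did not deviate together (r of -0.178, -0.306 and -0.163 over genes for replicates 1 to 3), so the numbers were not taken as pairs, and with the replicate block edgeR called 0 genes, with Scnn1a at 0.29 (adjusted p = 0.699). At 1 count per fragment, counting error alone gives Cftr a CV of 27.1%, near its CVs between libraries of 23.5 and 31.8%. On the same assumption the CVs of Scnn1b and Scnn1g were above their counting CVs in both groups. Where fragments added more than 1 count, the counting CVs would be larger, so a spread beyond counting error is not settled for these scarce genes.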
